A study of Mus musculus with 9 samples.

Results

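Expression of the spliceosome core genes was examined in splenic B cells that were either naïve or activated in culture, from control and Mct1-deficient mice. The members were all genes of the deposited expression table whose symbol begins with Snrp, Sf3a, Sf3b, Prpf, or Lsm followed by a digit, which gave 47 of 17596 genes. They are 8 Sm genes, 4 genes of proteins found only in the U1 or U2 particle, 9 genes of the SF3A and SF3B complexes, 8 Lsm genes of the ring on U6 or of its cytoplasmic relative, 5 other Lsm genes, 5 Prpf genes of the U4/U6 and U5 particles and 8 other Prpf genes.

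The study asked how loss of the monocarboxylate transporter MCT1 changes B cell activation. The control mice were Mb1Cre, whose Cre recombinase is active in cells of the B lineage. In Mct1f/fMb1Cre mice the same Cre removes a floxed part of Mct1, so both genotypes carried the Cre. Primary B cells from the spleens of mice aged 6 to 8 weeks on a C57BL/6J background were taken without treatment (day 0) or after 3 days of stimulation by 10 μg/ml LPS together with IL-4 at 50 ng/ml, a combination used to induce class switch recombination in vitro. There were 2 control and 2 Mct1-deficient libraries on day 0, and 2 control and 3 Mct1-deficient libraries on day 3. Values are in FPKM, which divides the fragments of a gene by transcript length and by all mapped fragments. This puts genes on a common scale, but how lengths and shared reads were handled is not given in the sources used here. Comparisons of levels between genes are therefore approximate. Sequencing depth is unknown because the table holds no read counts, and the 2 or 3 libraries per group limit the precision. The labels do not name the mouse behind a library, so the p-values measure the spread between these libraries only.

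The spliceosome removes introns from pre-mRNA and is put together from small nuclear ribonucleoproteins (snRNPs), each a small nuclear RNA with its proteins. U1 binds the 5′ splice site and U2 the branch site, and the U4/U6.U5 tri-snRNP then joins before the catalytic steps. The Sm proteins form a ring on the U1, U2, U4 and U5 RNAs, and the Lsm2 to Lsm8 proteins form the matching ring on U6, whereas the ring with Lsm1 in place of Lsm8 acts in the cytoplasm in decapping and decay of mRNA. Lymphocytes leaving the resting state enlarge, raise their RNA synthesis and divide.

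Mct1, listed under its gene symbol Slc16a1, had 22.6 and 23.0 FPKM in the control libraries on day 3 and 10.8, 9.81 and 9.50 FPKM in the Mct1-deficient libraries. On day 0 it had 4.33 and 3.80 FPKM in the control and 3.71 and 4.06 FPKM in the Mct1-deficient libraries, so its level separated the genotypes on day 3 and not on day 0. A value per gene does not show whether reads came from the removed exons. The 6 B cell markers examined (Cd79a, Cd79b, Ms4a1, Cd22, Pax5 and Cd74) were expressed in every group, with a summed FPKM of 13426 to 14941 on day 0 and 8173 to 8837 on day 3. Markers of other cells moved with the day. The summed FPKM of 8 myeloid markers was 1020 to 1829 on day 0 and 15.5 to 26.2 on day 3, that of 6 T cell markers 47.6 to 52.3 and 11.3 to 13.6, and that of 4 erythroid markers 95.01 to 172 and 4.34 to 7.92, with the haemoglobin gene Hbb-bs at 0 in all day 3 libraries. The 3 platelet markers summed to 3.98 to 10.3 FPKM on day 0 and 2.36 to 3.94 on day 3, and the 4 NK cell markers to 67.0 to 82.8 and 85.3 to 98.4. Of these NK cell markers only Gzma was called higher in both genotypes (38.9 to 90.9 FPKM by mean in control cells), and Nkg7, Klrb1c and Ncr1 were called lower. Most of the T cell sum on day 3 came from Lck (10.1 to 12.6 FPKM). Likewise, Hbb-bt (4.31 to 7.69 FPKM) held most of the erythroid sum and Pf4 (2.05 to 3.79 FPKM) most of the platelet sum. The Y-linked gene Ddx3y had 0.02 to 0.24 FPKM in 3 of the day 0 libraries, 31.1 FPKM in the first Mct1-deficient library of day 0 and 14.7 to 16.9 FPKM in the 5 libraries of day 3. The labels do not give the sex of the mice. In control cells the difference in Ddx3y and the day cannot be told apart, and the part of the other marker levels in the differences between days was not tested. Ddx3y was also uneven between the genotypes on day 0. Its part in the genotype comparison of day 0 and in the interaction of genotype and day was not tested. Leaving out the second Mct1-deficient library of day 0 gave 28 members called higher and 4 lower on day 3 in these cells, with 1 library left on day 0 that is assumed to vary like the other groups. In bulk RNA, fewer cells of a type and less RNA per cell cannot be told apart.

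Reference promoters are shown for 4 members, to give the DNA in front of genes that rose and fell together on activation. RefSeq windows on GRCm38.p6, from 250 bases before to 50 bases after a gene's start, were matched for 38 of the 47 members (48 windows, since 8 genes have more than 1 start). Of the 30 members with 1 window, 11 had at most 30 of the 250 bases before the start inside an annotated exon. From these 11, the members with the largest decrease (Prpf39 and Prpf38b) and the largest increase (Lsm5 and Snrpb2) in control cells were taken. Each line gives the 250 bases before the start, read 5′ to 3′ along the gene, with matches on either strand to CACGTG (an E-box), CCGGAAG (the core of ETS factor sites) or CCAAT (the CCAAT box) in capitals.
Prpf39, chr12:65036084-65036333, plus strand: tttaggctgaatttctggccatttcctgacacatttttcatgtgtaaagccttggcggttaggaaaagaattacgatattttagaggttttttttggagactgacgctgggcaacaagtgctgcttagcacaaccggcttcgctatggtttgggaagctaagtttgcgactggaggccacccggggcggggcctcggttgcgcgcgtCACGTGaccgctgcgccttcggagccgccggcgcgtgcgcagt
Prpf38b, chr3:108911730-108911979, minus strand: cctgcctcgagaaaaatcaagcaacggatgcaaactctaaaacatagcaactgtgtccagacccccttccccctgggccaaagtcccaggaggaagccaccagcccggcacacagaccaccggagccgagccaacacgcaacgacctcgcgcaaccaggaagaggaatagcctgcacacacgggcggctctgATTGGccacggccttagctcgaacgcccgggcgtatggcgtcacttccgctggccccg
Lsm5, chr6:56704700-56704949, minus strand: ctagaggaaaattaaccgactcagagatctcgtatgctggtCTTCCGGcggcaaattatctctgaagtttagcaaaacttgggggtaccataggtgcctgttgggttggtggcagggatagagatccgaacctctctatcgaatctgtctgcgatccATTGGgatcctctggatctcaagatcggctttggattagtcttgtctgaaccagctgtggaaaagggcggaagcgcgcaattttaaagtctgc
Snrpb2, chr2:143062819-143063068, plus strand: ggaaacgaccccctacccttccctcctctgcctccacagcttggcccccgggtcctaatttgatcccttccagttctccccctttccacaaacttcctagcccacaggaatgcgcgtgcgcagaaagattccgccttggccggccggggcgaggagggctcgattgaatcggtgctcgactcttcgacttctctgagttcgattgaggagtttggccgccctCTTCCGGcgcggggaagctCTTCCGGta
The E-box of Prpf39 begins 43 bases before the start, and the CCAAT box of Prpf38b, on the opposite strand, 58 bases before it. Lsm5 holds an ETS core 209 bases and a CCAAT box 93 bases before its start, both on the opposite strand. Snrpb2, the gene of the U2 protein B″, has ETS cores 28 and 9 bases before its RefSeq start, both on the opposite strand. GENCODE starts this gene at 143063039, so by that annotation both cores lie inside the gene.

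Over whole windows, CCGGAAG was present in 16 of the members' 48 windows (33.3%), against 19.0% of the 11156 windows of genes that were tested for expression and 8.86% of all 32851 windows. CCAAT was present in 20 of the 48 windows (41.7%), against 38.6% and 37.4%, and CACGTG in 6 (12.5%), against 10.2% and 7.15%. Both strands were searched, and no motif holds another. Of the 20 matched members called higher in control cells, 8 had CCGGAAG and 8 had CCAAT, and of the 4 matched members called lower, 1 had each. Of all 38 matched members, 15 had CCGGAAG and 17 had CCAAT. A link between a motif and the direction of change was not tested. A match is a description of the sequence and not a binding site.

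The first question was how the spliceosome core genes change when B cells are activated. Most of the 46 members with a mean of at least 1 FPKM were higher on day 3. Those called higher in both genotypes included 6 of the 7 expressed Sm genes, all 4 genes specific to U1 or U2 and 6 of the 8 Lsm ring genes. A few members fell, among them Sf3b1, the subunit of U2 that holds the branch site. In control cells 25 of 46 members were called higher and 4 lower, where a call needs an adjusted p under 0.05 (limma with Benjamini-Hochberg adjustment over 10823 genes) as well as a log2 fold change whose size is over 0.5. Of all tested genes, 24.8% were called higher and 33.0% lower in this comparison. In Mct1-deficient cells 28 members were called higher and 4 lower, against 23.4% and 33.2% of all tested genes. The median log2 fold change over members was 0.60 in control and 0.61 in Mct1-deficient cells, and over all tested genes -0.12 and -0.14. Without the limit on the fold change, 33 members were higher and 5 lower in control cells, against 37.0% and 47.5% of all genes, and 33 were higher and 7 lower in Mct1-deficient cells, against 36.4% and 49.1%. With the libraries scaled to a common total, Snrpb2 fell short of the limit in both genotypes (0.42 in control and 0.41 in Mct1-deficient cells). Lsm7 then fell short in control (0.41) and Lsm5 in Mct1-deficient cells (0.47). The counts above for the U1 or U2 genes and for the Lsm ring therefore depend on the scaling.

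All 25 members called higher in control cells were also called higher in Mct1-deficient cells, the same 4 members were called lower in both, and none was called in opposite directions. Sf3b3, Sf3b4 and Snrpb were called in Mct1-deficient cells and missed the fold change limit in control cells, where their log2 fold changes were 0.36, 0.42 and 0.42. The log2 fold changes had the same sign in both genotypes for 45 of 46 members, the exception being Lsm14a, which was near 0 in both. Over the 46 members, the fold changes of the 2 genotypes, which share no library, correlated with 0.964 (Pearson's r) and 0.951 (Spearman's rho). Genes are not independent of each other, so this is a description. The members' values made up 0.462% to 0.469% of the summed FPKM of all genes on day 0 and 0.617% to 0.629% on day 3. The values of day 3 and day 0 libraries did not overlap for 43 of 46 members in control cells and for 42 in Mct1-deficient cells, but this was also so for 91.9% and 89.8% of all tested genes.

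**Figure D1:**
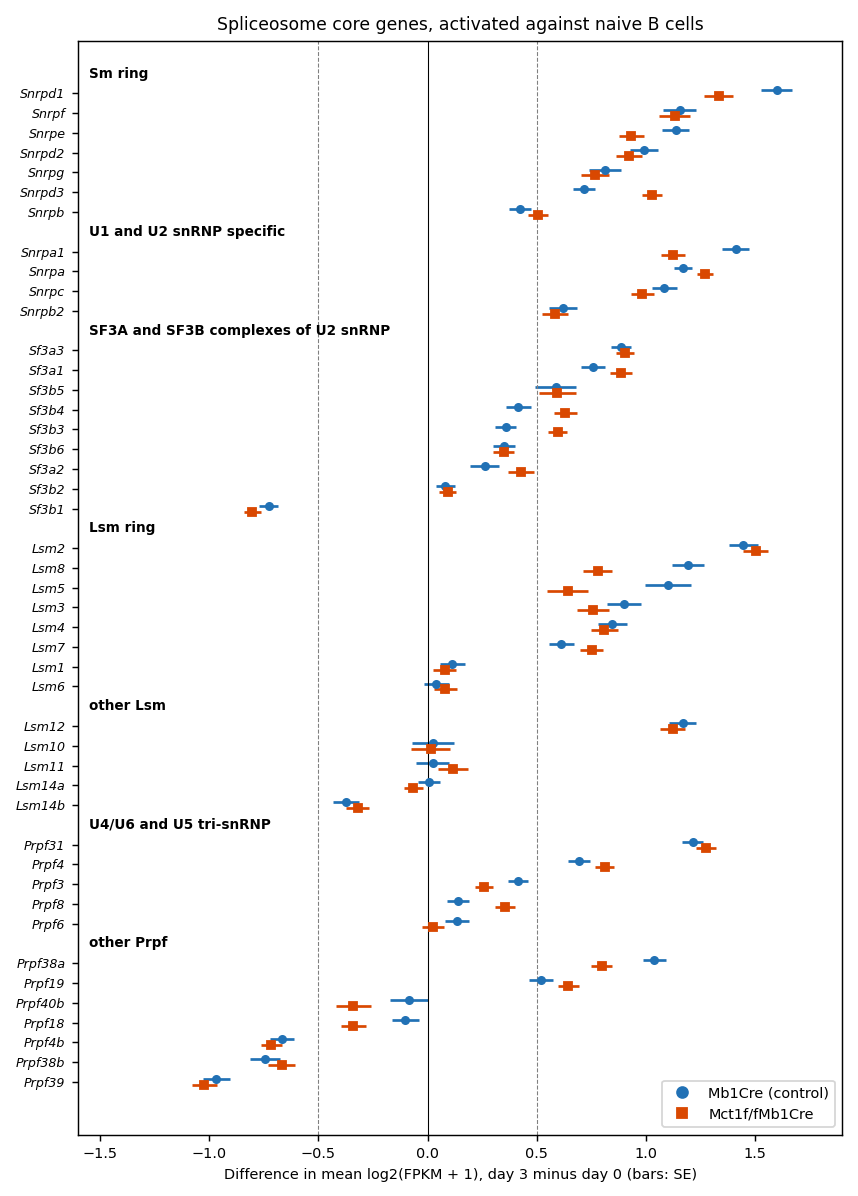
Log2 fold change between day 3 and day 0 for 45 of the 46 tested members, by role, on the log2(FPKM + 1) scale. Circles are Mb1Cre cells, squares Mct1f/fMb1Cre cells, bars are standard errors, and dashed lines mark the limit of 0.5. The Sm ring and the U1 and U2 genes lie to the right of 0 in both genotypes, and Sf3b1, Prpf4b, Prpf38b and Prpf39 to the left of -0.5.

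The Sm ring genes encode the 7 proteins that close around 4 of the spliceosomal RNAs. Together they summed to 638 and 663 FPKM in the control libraries on day 0 and to 1314 and 1196 FPKM on day 3, and to 645 and 679 FPKM and 1238, 1276 and 1237 FPKM in Mct1-deficient cells. All 7 passed the adjusted p in both genotypes, and 6 in control and 7 in Mct1-deficient cells also passed the fold change limit.

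Snrpd1, which encodes SmD1 and lies on chromosome 18, had the lowest level of the ring in naïve cells of both genotypes and, in control cells, the largest increase of all members. It had 49.1 and 45.1 FPKM in control and 50.1 and 56.8 FPKM in Mct1-deficient libraries on day 0. On day 3 it had 147 and 142 FPKM in control and 145, 128 and 135 FPKM in Mct1-deficient libraries. Every day 3 library was above every day 0 library, with a log2 fold change of 1.60 ± 0.073 (SE, adjusted p = 2.85e-09 with limma) in control and 1.33 ± 0.066 (adjusted p = 5.53e-09) in Mct1-deficient cells.

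Snrpe, the gene of SmE, had 95.9 and 107 FPKM in control and 104 and 109.97 FPKM in Mct1-deficient libraries on day 0, and 231 and 217 FPKM and 206, 214 and 197 FPKM on day 3. Snrpf, the gene of SmF, had 66.8 and 78.0 FPKM and 73.4 and 75.3 FPKM on day 0, and 172 and 153 FPKM and 159.7, 173 and 160.0 FPKM on day 3. Both rose without overlap, by 1.14 and 1.15 on the log2 scale in control cells. Snrpg, the gene of SmG, was the most abundant member of the ring on both days, with 134 and 137 FPKM and 134 and 145 FPKM on day 0, and 259.8 and 220.5 FPKM and 233, 248 and 234 FPKM on day 3. The pair of control libraries on day 3 lay further apart for Snrpg than the 3 Mct1-deficient ones.

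Snrpd2, the gene of SmD2, had 91.1 and 97.7 FPKM in control and 89.4 and 99.7 FPKM in Mct1-deficient libraries on day 0, and 197 and 179.97 FPKM and 177, 186 and 176 FPKM on day 3. Snrpd3, the gene of SmD3, had 90.2 and 88.7 FPKM and 85.6 and 80.4 FPKM on day 0, and 154 and 142 FPKM and 166, 172 and 173 FPKM on day 3. For Snrpd3 the Mct1-deficient libraries were all above the control libraries on day 3 and all below them on day 0. Snrpb, which encodes SmB and its splice form SmB′, rose least of the ring, from 110.1 and 109.8 FPKM to 153 and 143 FPKM in control and from 108 and 111 FPKM to 150.1, 155 and 162 FPKM in Mct1-deficient cells. Its log2 fold change of 0.42 ± 0.050 in control cells passed the adjusted p (1.05e-05) but not the fold change limit, and that of 0.50 ± 0.046 in Mct1-deficient cells (adjusted p = 1.03e-06) just passed both.

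The levels of the ring genes came closer together on activation. The ratio of the highest to the lowest of the 7 genes within a library was 2.56 to 3.04 on day 0 and 1.56 to 1.94 on day 3. By group mean in control cells on day 0 the order was Snrpg (136 FPKM), Snrpb (109.97), Snrpe (101), Snrpd2 (94.4), Snrpd3 (89.5), Snrpf (72.4) and Snrpd1 (47.1). Of neighbours in this order, the libraries of Snrpe and Snrpd2 overlapped and the other pairs did not, with 2 libraries each. On day 3 the order was Snrpg (240.1 FPKM), Snrpe (224), Snrpd2 (189), Snrpf (162), Snrpb (148), Snrpd3 (147.8) and Snrpd1 (145), and of neighbours in this order, Snrpe and Snrpd2, and Snrpd2 and Snrpf, did not overlap while the other pairs did. Snrpn, the gene of the Sm protein SmN and a close relative of Snrpb known from neurons, had 0.03 to 0.11 FPKM on day 0 and 0 to 0.01 FPKM on day 3, and was the 1 member not tested. Snrpn and Snrpb are alike in sequence, and how shared reads were divided between them is not given in the sources used here.

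**Figure D2:**
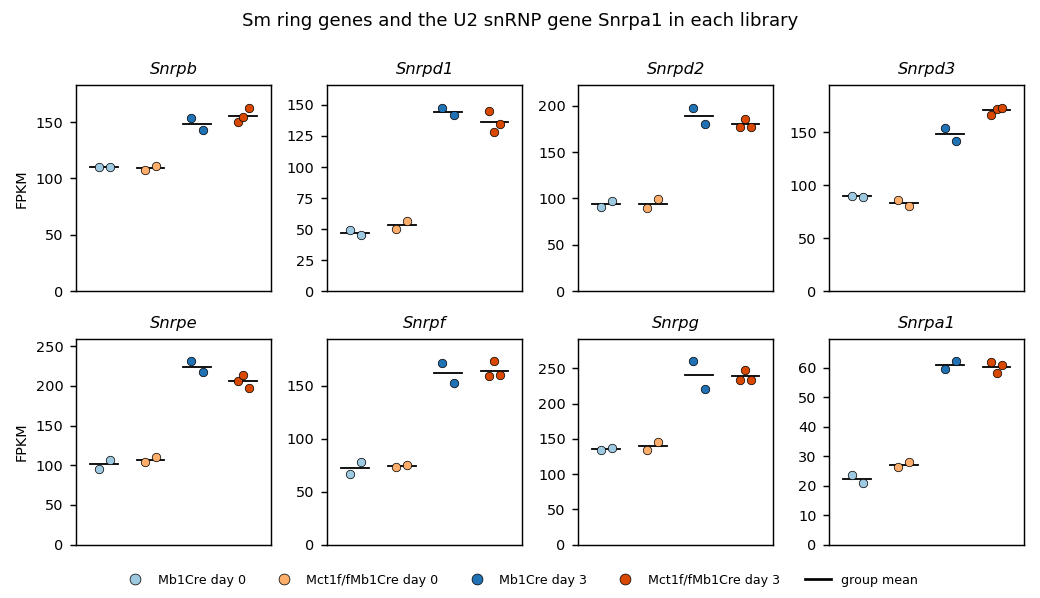
FPKM of the 7 Sm ring genes and of the U2 gene Snrpa1 in each of the 9 libraries. Each point is 1 library, coloured by genotype and day, lines are group means, and every vertical axis starts at 0. For all 8 genes the day 3 libraries lie above the day 0 libraries.

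The 4 genes for proteins specific to U1 or U2 all rose in both genotypes. Snrpa1, which encodes the U2 protein A′, had 23.5 and 21 FPKM in control and 26.2 and 27.9 FPKM in Mct1-deficient libraries on day 0, and 59.6 and 62.1 FPKM and 61.8, 58.0 and 60.7 FPKM on day 3. Its log2 fold change was 1.41 ± 0.061 in control and 1.13 ± 0.055 in Mct1-deficient cells (limma, adjusted p = 1.82e-09 and 5.06e-09). Snrpa and Snrpc, which encode the U1 proteins A and C, rose by 1.17 and 1.08 on the log2 scale in control cells and by 1.27 and 0.98 in Mct1-deficient cells. Snrpb2, whose promoter is printed above, rose by 0.62 and 0.58.

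The genes of SF3A and SF3B, the U2 subcomplexes that bind around the branch site, did not move as one. In control cells 3 of 9 were called higher and 1 lower, and in Mct1-deficient cells 5 higher and 1 lower. Sf3b1 (chromosome 1, 54985169 to 55027481, minus strand) encodes the subunit that closes over the branch site helix and is the target of known splicing inhibitors. It had 136 and 128 FPKM in control and 141 and 135 FPKM in Mct1-deficient libraries on day 0, and 78.6 and 80.3 FPKM and 80.1, 78.3 and 77.7 FPKM on day 3. It was the most abundant of the 9 genes in every library of day 0 and was passed by Sf3a2, Sf3b2 and Sf3b3 in every library of day 3. Its log2 fold change was -0.73 ± 0.044 in control and -0.80 ± 0.040 in Mct1-deficient cells (limma, adjusted p = 3.30e-08 and 6.02e-09), and the day 3 libraries were all below those of day 0.

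Of the other SF3 genes none was called lower. Sf3a3 and Sf3a1 had the largest increases, with log2 fold changes of 0.89 and 0.76 in control and 0.91 and 0.89 in Mct1-deficient cells, and Sf3b5 had 0.59 and 0.59. In Mct1-deficient cells Sf3b4 (0.63) and Sf3b3 (0.60) were also called higher. Sf3a2 and Sf3b6 passed the adjusted p in both genotypes without reaching the fold change limit. Sf3b2 had a log2 fold change of 0.081 in control cells (limma, adjusted p = 0.0988) and of 0.093 in Mct1-deficient cells (adjusted p = 0.0450). The sum of the 9 genes was 637 and 652 FPKM in control and 636 and 652 FPKM in Mct1-deficient libraries on day 0, and 747 and 759 FPKM in control and 783 to 809 FPKM in Mct1-deficient libraries on day 3.

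Of the 8 Lsm ring genes, 6 rose in both genotypes, and Lsm1 and Lsm6 passed the test in neither. Lsm2 rose most of the ring, and most of all members in Mct1-deficient cells, from 31.5 and 34.9 FPKM to 95.5 and 88.8 FPKM in control and from 30.02 and 33.6 FPKM to 92.3, 91.6 and 91.5 FPKM in Mct1-deficient cells. These are log2 fold changes of 1.45 ± 0.065 and 1.502 ± 0.059 (limma, adjusted p = 2.46e-09 and 7.93e-10). Lsm3, Lsm4, Lsm5 and Lsm7 rose by 0.90, 0.85, 1.10 and 0.61 on the log2 scale in control cells and by 0.76, 0.81, 0.64 and 0.75 in Mct1-deficient cells. Lsm6, a subunit of both rings, had 14.8 to 16.4 FPKM on day 0 and 16.2 to 17.1 FPKM on day 3, with log2 fold changes of 0.039 and 0.082 (adjusted p = 0.532 and 0.164).

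Lsm8 sets the nuclear ring and Lsm1 the cytoplasmic ring. Lsm8 had 22.2 and 19.0 FPKM in control and 24.6 and 23.6 FPKM in Mct1-deficient libraries on day 0, and 50.1 and 46.3 FPKM and 44.1, 42.0 and 40.2 FPKM on day 3. Lsm1 had 8.57 and 8.16 FPKM and 8.55 and 8.19 FPKM on day 0, and 9.11 and 9.16 FPKM and 8.97, 9.08 and 8.65 FPKM on day 3. Its log2 fold changes of 0.11 ± 0.058 and 0.079 ± 0.053 did not pass the test (adjusted p = 0.0887 and 0.183). The ratio of Lsm8 to Lsm1, which does not depend on how libraries are scaled, was 2.59 and 2.33 in control and 2.88 and 2.88 in Mct1-deficient libraries on day 0. On day 3 it was 5.50 and 5.05 in control and 4.92, 4.63 and 4.65 in Mct1-deficient libraries, and no library of one day reached into the range of the other.

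On the log2 scale the ratio was 1.41 ± 0.147 (SD, n = 4) on day 0 and 2.30 ± 0.102 (SD, n = 5) on day 3, a difference of 0.89 (p = 0.0159 in an exact permutation test, two-sided, and no lower p is possible in this design). It was 1.10 higher on day 3 in control cells and 0.72 higher in Mct1-deficient cells, where the exact permutation tests cannot go below 0.333 and 0.2, respectively. The rise of this ratio largely repeats that of Lsm8, since Lsm1 passed the test in neither genotype. The days did not overlap for 91.9% of all tested genes in control and 89.8% in Mct1-deficient cells. How often other ratios of 2 genes separate the days was not tested. Between the genotypes on day 3 the log2 ratio was 2.40 ± 0.086 (SD, n = 2) in control and 2.24 ± 0.049 (SD, n = 3) in Mct1-deficient cells, which did not overlap (difference -0.16, p = 0.2 in an exact permutation test, two-sided, where no lower p is possible).

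**Figure D3:**
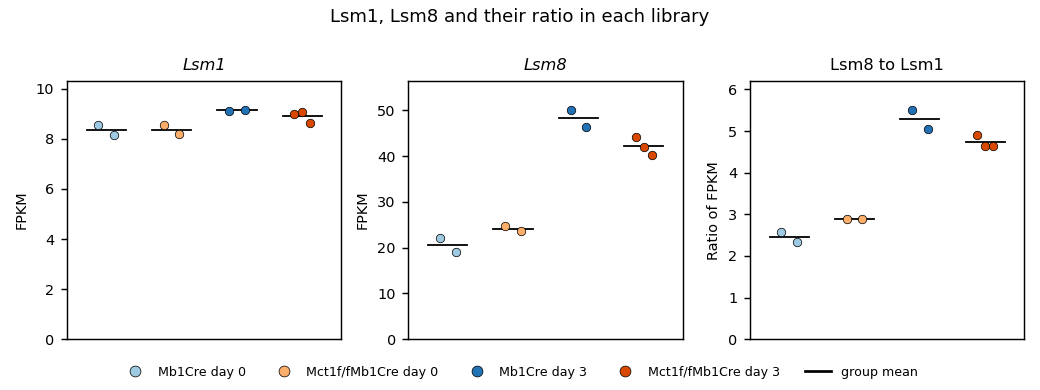
FPKM of Lsm1 and Lsm8 and the ratio of Lsm8 to Lsm1 in each library. Points are libraries, lines group means, and the axes start at 0. Lsm1 stays between 8.16 and 9.16 FPKM, while the ratio is 2.33 to 2.88 on day 0 and 4.63 to 5.50 on day 3.

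The remaining Lsm genes have other roles. Lsm10 and Lsm11 replace 2 Sm proteins in the U7 snRNP, which cuts the 3′ end of histone mRNA. Lsm10 had 14.8 and 15.4 FPKM in control and 14.5 and 16.3 FPKM in Mct1-deficient libraries on day 0, and 16.5 and 14.3 FPKM and 14.3, 17.5 and 14.99 FPKM on day 3. Lsm11 had 2.84 to 3.05 FPKM on day 0 and 2.97 to 3.39 FPKM on day 3. Their log2 fold changes were 0.025 and 0.023 in control and 0.015 and 0.12 in Mct1-deficient cells, none of which passed the test (adjusted p = 0.817, 0.786, 0.881 and 0.137). The signs of these small differences, and that of Lsm1, turned with the scaling of the libraries to a common total.

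Lsm12 rose from 25.8 to 29.9 FPKM on day 0 to 58.8 to 65.4 FPKM on day 3, with log2 fold changes of 1.17 and 1.12. Lsm14b, a relative of the P-body protein Lsm14a, had 19.3 and 18.9 FPKM in control and 17.5 and 18.6 FPKM in Mct1-deficient libraries on day 0, and 13.8 and 15.3 FPKM and 14.3, 14.0 and 14.5 FPKM on day 3. It fell by 0.37 and 0.32 on the log2 scale (limma, adjusted p = 1.20e-04 and 1.88e-04), short of the fold change limit. Lsm14a had log2 fold changes of 0.0064 and -0.064 (adjusted p = 0.905 and 0.196).

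Of the 5 Prpf genes of the tri-snRNP, 2 were called higher in both genotypes and none lower. Prpf31, which holds the U4/U6 particle together and joins it to U5, had 16.1 and 16.3 FPKM in control and 15.3 and 16.0 FPKM in Mct1-deficient libraries on day 0, and 39.1 and 38.7 FPKM and 37.8, 39.6 and 40.4 FPKM on day 3. Its log2 fold change was 1.21 ± 0.049 and 1.28 ± 0.045 (limma, adjusted p = 1.04e-09 and 3.12e-10). Prpf4, a U4/U6 protein, rose by 0.70 and 0.81, and its partner Prpf3 had log2 fold changes of 0.41 and 0.26, which passed the adjusted p but not the fold change limit.

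Prpf8, the scaffold around the catalytic centre in U5, had 86.5 and 80.3 FPKM in control and 76.6 and 76.0 FPKM in Mct1-deficient libraries on day 0, and 90.8 and 93.3 FPKM and 96.9, 94.7 and 102 FPKM on day 3. Its log2 fold changes of 0.14 (adjusted p = 0.0223) and 0.36 (adjusted p = 2.26e-05) were below the limit, and that in control cells turned to -0.059 with scaling to a common total and to -0.011 with quantile normalization. Prpf6, the bridge between U5 and U4/U6, had log2 fold changes of 0.13 (adjusted p = 0.0417) and 0.025 (adjusted p = 0.657).

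The other Prpf genes held the members that fell as well as members that rose. Prpf39, a protein that joins the U1 particle, had 36.3 and 34.0 FPKM in control and 38.7 and 37.5 FPKM in Mct1-deficient libraries on day 0, and 16.7 and 18.4 FPKM and 18.7, 18.8 and 17.3 FPKM on day 3. It fell by 0.97 and 1.02 on the log2 scale (limma, adjusted p = 5.50e-08 and 1.42e-08). Prpf38b, a relative of the tri-snRNP factor Prpf38a, had 82.8 and 83.9 FPKM and 83.2 and 85.1 FPKM on day 0, and 47.4 and 51.4 FPKM and 54.5, 55.7 and 47.9 FPKM on day 3. Prpf4b, a kinase that acts on tri-snRNP proteins, had 36.3 and 34.8 FPKM and 38.8 and 39.1 FPKM on day 0, and 21.3 and 22.7 FPKM and 23.6, 24.3 and 22.3 FPKM on day 3. For each of the 3 genes every day 3 library lay below every day 0 library, as for Sf3b1.

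Prpf38b and Prpf4b fell by 0.74 and 0.67 in control and by 0.67 and 0.71 in Mct1-deficient cells. Prpf38a went the other way, from 15.8 to 16.9 FPKM on day 0 to 28.7 to 34.8 FPKM on day 3, with log2 fold changes of 1.04 and 0.80. Prpf40b, a relative of a yeast U1 protein, had log2 fold changes of -0.084 (adjusted p = 0.385) and -0.34 (adjusted p = 2.08e-03). Prpf18, a factor of the second catalytic step, had -0.10 (adjusted p = 0.148) and -0.34 (adjusted p = 1.79e-04). Prpf19, the ubiquitin ligase that names the Prp19 complex, had 20.4 and 19.9 FPKM in control and 19.5 and 20.0 FPKM in Mct1-deficient libraries on day 0, and 29.3 and 29.3 FPKM and 29.6, 31.8 and 32.9 FPKM on day 3. Its log2 fold changes were 0.52 and 0.65 and fell under the limit, to 0.33 and 0.47, with scaling to a common total.

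**Figure D4:**
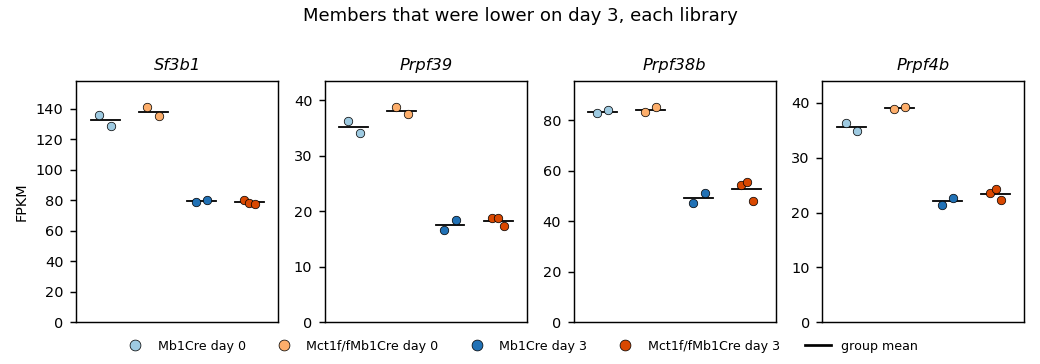
FPKM of the 4 members called lower on day 3 in each library. Points are libraries, lines group means, and the axes start at 0. In each panel all 5 day 3 libraries lie below all 4 day 0 libraries.

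Other genes of the splicing pathway were read from lists that hold no member. Of all tested genes, 24.8% were called higher and 33.0% lower in control cells, and 23.4% and 33.2% in Mct1-deficient cells. A list count near these shares, here or in the next paragraph, is not particular to its list. Of 14 genes for snRNP assembly, 8 were called higher in control cells and none lower, led by Gemin6 (log2 fold change 1.80) of the SMN complex and Strap (1.26), and in Mct1-deficient cells 7 were called higher. Of 27 further genes of snRNP proteins and their partners, 9 were higher and none lower in both genotypes, led by Ppih (1.30), a cyclophilin of the tri-snRNP, and U2af1 (1.25), which reads the 3′ splice site. Of 22 genes of the Prp19 complex and the catalytic steps, 5 were higher and 3 lower in control and 3 higher and 2 lower in Mct1-deficient cells, with Cwc27 (1.00) and Plrg1 (0.71) the largest. Of 8 genes of the minor spliceosome, 3 were higher in control and 2 in Mct1-deficient cells, with Snrnp35 (0.70) and Snrnp25 (0.65) the largest.

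Of 6 genes for splicing kinases, 4 were called lower in both genotypes and none higher, and Clk1 fell from 175 and 173 FPKM to 59.7 and 59.7 FPKM in control cells and from 186 and 186 FPKM to 55.0, 51.0 and 46.3 FPKM in Mct1-deficient cells. Clk1 and Clk4, kinases of SR proteins, had log2 fold changes of -1.53 and -1.25 in control cells. The kinases not called were Srpk1, which passed the adjusted p upward but not the limit (log2 fold changes of 0.23 and 0.27), and Clk3 (-0.051 and -0.34), which passed it in Mct1-deficient cells only (limma, adjusted p = 0.415 and 9.33e-05). Of 12 tested SR protein genes, 3 were higher and 1 lower in control and 3 higher and 2 lower in Mct1-deficient cells, with Srsf3 at 0.62 and Srsf5 at -0.62 in control cells. Of 6 genes of histone mRNA 3′ end processing, 4 were higher in both genotypes, with Npat (0.83) and Slbp (0.80) the largest, and of 8 decapping genes 2 were lower in control and 1 in Mct1-deficient cells, with Dcp1b (-0.78) and Ddx6 (-0.56) the largest.

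The second question was whether loss of Mct1 changes these genes in activated cells. No member was called higher or lower between the genotypes on day 3, against 0.887% and 1.53% of all tested genes. At an unadjusted p under 0.05 there were 5 members higher and 5 lower. The log2 differences of the 46 members lay between -0.22 and 0.20, with standard errors of 0.037 to 0.095, and the 95% intervals of all 46 lay within -0.43 and 0.32, so inside the limit of 0.5. Without the fold change limit 3 members were higher and 2 lower in Mct1-deficient cells, against 6.03% and 9.21% of all tested genes. The libraries of the genotypes did not overlap for 20 of 46 members on day 3, against 47.1% of all tested genes.

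The 3 members with the lowest p on day 3 were Snrpd3, Sf3b3 and Sf3b4, and all were higher in Mct1-deficient cells. Snrpd3 differed by 0.20 ± 0.047 (limma, adjusted p = 0.0146), with the values given above. Sf3b3, an SF3B scaffold subunit, had 81.2 and 83.1 FPKM in control and 91.2, 91.2 and 96.9 FPKM in Mct1-deficient libraries, a difference of 0.18 ± 0.043 (adjusted p = 0.0183). Sf3b4, the SF3B subunit that touches the pre-mRNA near the branch site, had 78.2 and 83.9 FPKM and 91.8, 94.6 and 93.5 FPKM, a difference of 0.20 ± 0.053 (adjusted p = 0.0273). In all 3 the genotypes did not overlap.

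Prpf38a and Prpf6 were lower in Mct1-deficient cells. Prpf38a had 32.9 and 34.8 FPKM in control and 30.5, 30.9 and 28.7 FPKM in Mct1-deficient libraries (-0.17 ± 0.048, limma, adjusted p = 0.0403). Prpf6 had 31.8 and 31.5 FPKM and 29.1, 26.3 and 29.0 FPKM (-0.17 ± 0.050, adjusted p = 0.0485). None of these 5 members kept an adjusted p under 0.05 with each of the 9 libraries left out in turn. Snrpd3 kept it in 7 of the 9 fits, Sf3b3 in 6, Sf3b4 in 5, Prpf38a in 3 and Prpf6 in 1. The highest values came without the first control library of day 3 for Sf3b3, Sf3b4 and Prpf6 (0.140, 0.229 and 0.219) and without the second for Snrpd3 and Prpf38a (0.150 and 0.264). All 5 also lost it without the third Mct1-deficient library of day 3 (0.0535 to 0.132). With the replicate number as a block, the adjusted p was 0.0596 for Snrpd3, 0.0952 for Sf3b3, 0.0331 for Sf3b4, 0.170 for Prpf38a and 0.0738 for Prpf6. This block takes the third Mct1-deficient library of day 3 out of the estimates, since no other library has its number.

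On day 0 no member was called between the genotypes, against 0.240% of all tested genes higher and 0.0370% lower, and 6 members were higher and 1 lower at an unadjusted p under 0.05. No member passed without the fold change limit either, against 0.351% and 0.0647% of all tested genes. The log2 differences lay between -0.13 and 0.27 and all 95% intervals within -0.24 and 0.47. Snrpa1 had the largest difference, 0.27 ± 0.061 (limma, adjusted p = 0.128), and its libraries did not overlap. The genotypes did not overlap for 17 of 46 members, against 38.4% of all tested genes.

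The last question was whether activation changed a member differently in the 2 genotypes. No member was called in the interaction of genotype and day, against 1.02% of all tested genes higher and 2.22% lower in Mct1-deficient cells, and 4 were higher and 8 lower at an unadjusted p under 0.05. Without the fold change limit, Snrpd3 (0.31 ± 0.069, limma, adjusted p = 0.0207) and Sf3b3 (0.24 ± 0.063, adjusted p = 0.0419) rose more in Mct1-deficient cells and Lsm8 (-0.41 ± 0.099, adjusted p = 0.0289) rose less, against 3.82% and 5.61% of all tested genes. For Lsm8 the genotypes differed in opposite directions on the 2 days, with a difference of 0.22 on day 0 (adjusted p = 0.290) and of -0.19 on day 3 (adjusted p = 0.0817). Lsm5 had the largest interaction in size, -0.46 ± 0.141 (adjusted p = 0.0689), and 1 of its Mct1-deficient libraries of day 3 had 30.3 FPKM beside 38.8 and 39.1 FPKM in the others. The 95% intervals of 43 of the 46 members lay inside the limit of 0.5.

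**Figure D5:**
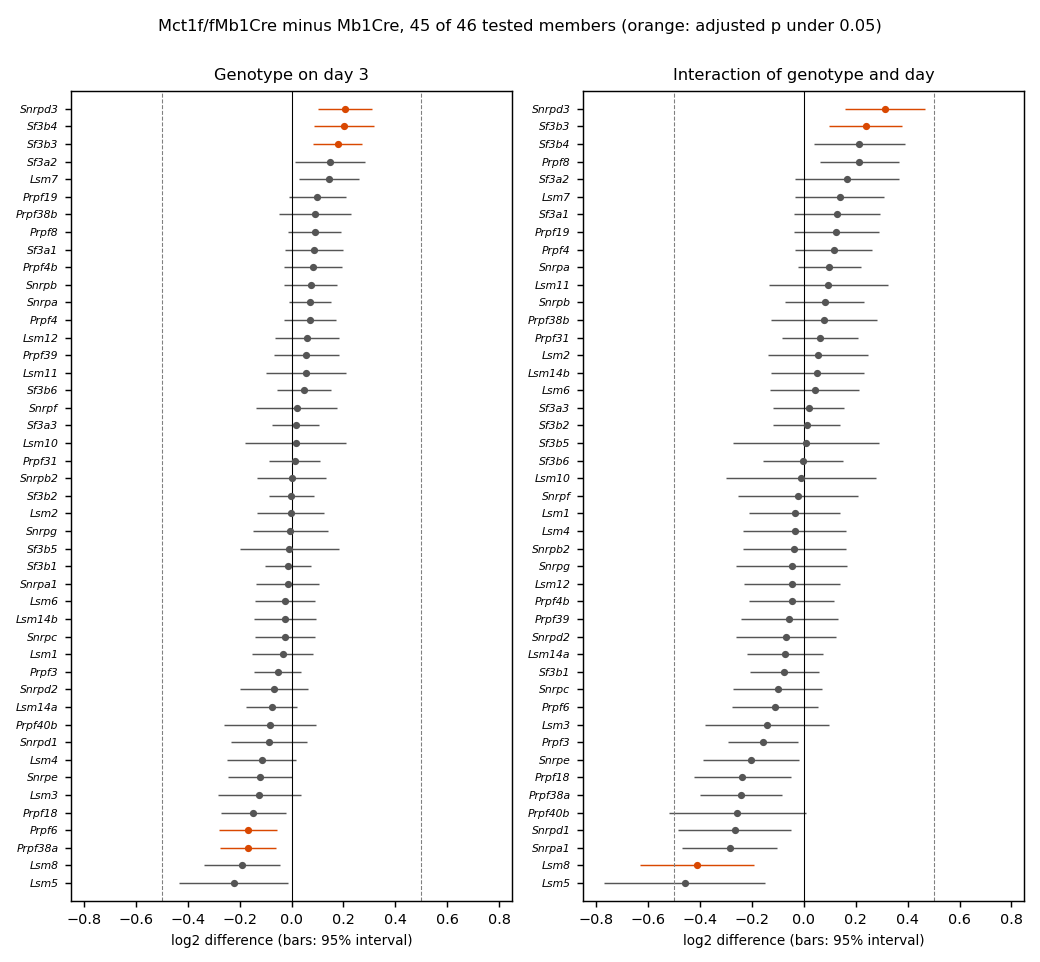
Difference between Mct1f/fMb1Cre and Mb1Cre cells for 45 of the 46 tested members on day 3 (left) and the interaction of genotype and day (right), on the log2(FPKM + 1) scale. Points are estimates, bars 95% intervals, dashed lines mark 0.5 in size, and orange marks an adjusted p under 0.05 (5 members on the left, 3 on the right). All points on the left lie between -0.22 and 0.20.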

How the data were processed

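The sequencing institute processed the RNA sequencing data of the B cell libraries, and per the labels Bowtie2 and the mouse genome GRCm38 (mm10) were used. The authors deposited FPKM values (normalised to gene length and mapped fragments, rounded to 2 decimals) for 17596 genes in 9 libraries. Counting parameters and annotation are not given in the sources used here.

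Groups were taken from the sample labels. Without further scaling, log2(FPKM + 1) was fitted with limma (version 3.58.1, R 4.3.3) as 1 mean per group, for the 10823 genes averaging 1 FPKM or more. Variances were moderated by empirical Bayes along a mean trend, and p-values adjusted by Benjamini-Hochberg over all tested genes. A fold change on this scale understates that of low genes. Ratios of Lsm8 to Lsm1 were compared by exact permutation tests in scipy 1.17.1 (Python 3.11.15), and figures were drawn with matplotlib 3.10.9. The procedure was tested on simulated data for the genotype comparison of day 3 only, with added changes larger than the fold change limit. The activation comparisons, the interaction and smaller differences were not tested in this way. Members, gene lists and the rules for named genes were chosen with earlier results of these data known. Named per library were the Sm ring genes, the 5 members with the largest increase and the 5 with the largest decrease in control cells, members with the lowest p for genotype or interaction, and Lsm1, Lsm8, Lsm10, Lsm11, Sf3b1, Prpf8, Prpf19 and Snrpn. From the other lists, the counts and the 2 tested genes with the largest change in control cells were given. The values of Clk1 per library, of Lsm12 and of the interaction of Lsm5 were added after they were seen. Alternatives were other pseudocounts, filters, scalings and fold change limits, fits of the compared groups only, without trend or with the replicate number as a block, and each library left out. Promoter sequences come from RefSeq (GRCm38.p6), and gene positions from GENCODE M21 (GRCm38), in which all 47 members were found. Values of some single genes, 1 member among them, are not reported here, though the member is in the counts.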

Additional observations from a re-analysis of the deposited data

Results flagged for a closer look

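Of the 46 tested members, 3 had an activation response that differed between the genotypes by the interaction term, at an adjusted p under 0.05 and without a limit on the fold change. Snrpd3, the gene of the Sm ring protein SmD3, rose by 0.72 on the log2 scale in control and by 1.03 in Mct1-deficient cells, an interaction of 0.31. Over 19 alternatives it lay between 0.25 and 0.37, and its adjusted p was under 0.05 in 11 of them (limma, 0.0140 to 0.0808). Sf3b3, of the SF3B complex, rose by 0.36 and 0.60, an interaction of 0.24, which lay between 0.20 and 0.28 and kept its adjusted p in 6 of 19 alternatives (0.0304 to 0.139). Lsm8, of the nuclear Lsm ring, rose by 1.19 and 0.78, an interaction of -0.41, which lay between -0.52 and -0.31 and kept its adjusted p in 11 of 19 alternatives (0.00865 to 0.119). Of the 19 alternatives, 10 left no library out, and there the adjusted p held in 6 for Snrpd3, 5 for Sf3b3 and 7 for Lsm8. These 10 include a crossed pairing of the control libraries that was added after the data were seen. The other 9 alternatives each left out 1 library. The groups of 2 or 3 libraries are too small for a test of single outlying libraries.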

How the results depend on the processing

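The counts of members called in both activation comparisons, and the absence of calls between genotypes on either day, stayed within 1.5 times under all pseudocounts, filters, scalings and fits tried, and with each library left out (24 to 25 higher and 4 lower in control, 27 to 28 and 4 in Mct1-deficient cells). They changed with the fold change limit. With a log2 limit of 1, 12 members were higher and 0 lower in control cells, and 8 higher and 1 lower in Mct1-deficient cells. With no limit, 7 were lower in Mct1-deficient cells, 3 were higher and 2 lower between genotypes on day 3, and 2 were higher and 1 lower in the interaction. The interaction held 0 to 1 members called lower when each library was left out, the 1 being Lsm8 (-0.52) without the first control library of day 0. Scaling to a common total moved the median of all genes in control cells from -0.12 to -0.31, with 21 members higher and 5 lower, and median-of-ratios scaling moved it to 0.070, with 30 and 3. Of all tested genes, 19.1% and 31.8% were then higher and 41.0% and 25.3% lower. Scaling to a common total turned Lsm1 to -0.068 and -0.081, Lsm10 to -0.17 and -0.15 and Lsm11 to -0.13 and -0.017 in control and Mct1-deficient cells, and Prpf8 to -0.059 in control cells, where quantile normalization gave -0.011. With single libraries left out, Lsm10 ranged from -0.075 to 0.12 in control and from -0.067 to 0.091 in Mct1-deficient cells, and Lsm11 from -0.011 to 0.057 in control cells. The cause was not tested. Prpf4b in control and Prpf38b in Mct1-deficient cells fell short of the limit with median-of-ratios scaling (-0.46 and -0.45), under which Sf3b3, Sf3b4 and Snrpb in control cells and Prpf8 (0.57) in Mct1-deficient cells were called higher. Lsm14b (-0.56) was called lower in control cells with a common total, and Lsm11 (0.55) higher in Mct1-deficient cells with quantile normalization. Sf3b3, Sf3b4 and Snrpb lost their call in Mct1-deficient cells with a common total (0.42, 0.45 and 0.33). The Lsm8 to Lsm1 ratio differed by 1.10 in control and 0.72 in Mct1-deficient libraries alone, designs too small to pass, and by 0.83 to 0.93 with each library left out.

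Replicate numbers are shared between groups, and the deviations of same-numbered libraries correlated between -0.122 and 0.0867. In a group of 2 libraries the deviations mirror each other. These values therefore cannot decide whether a number stands for a shared mouse or batch. With the replicate number as a block, 25 members were higher and 4 lower in control cells and 27 and 4 in Mct1-deficient cells, where Snrpb fell short (0.47). No other library has the number of the third Mct1-deficient library of day 3, so the block takes that library out of the estimates. The fit without that library gave the same value for Snrpb. A crossed pairing of the control libraries, added after the data were seen, gave the same counts of 25 and 4. With FPKM alone, the counting error of low members such as Lsm11 is unknown.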
